A study of Mus musculus with 4 samples.

Results

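The genes described here encode the constitutive proteasome of the mouse: the subunits of its 20S core and 19S cap, the chaperones that assemble both, and the core inhibitor PI31. They were picked by symbol, as all rows named Psma, Psmb, Psmc, Psmd, Psmf or Psmg with a number, without the immunoproteasome subunits Psmb8, Psmb9 and Psmb10. The rule found 41 of the 23281 genes listed. Their RNA was measured by sequencing in 3 libraries of cultured horizontal basal cells (HBCs), the reserve stem cells of the olfactory epithelium, and in 1 library of respiratory basal cells (RBCs), the basal stem cells of the neighbouring respiratory epithelium. The HBCs came from wildtype mice, were at passage 3 and have no sort on record. The RBCs were taken by microdissection from KRT5-CreER;Ai9-fl(stop)TdTomato mice and sorted as TdTomato+. In that strain an inducible Cre recombinase driven by the keratin 5 promoter switches on a red reporter, so cells that descend from keratin 5-expressing cells can carry it too. Age, sex and treatment go unstated for both groups, and culture, strain, sort and tissue of origin all differ between the groups and cannot be told apart.

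The proteasome is the barrel-shaped protease that degrades most short-lived and misfolded proteins marked with ubiquitin. Alpha subunits form the gated outer rings of the 20S core, and beta subunits form the inner rings, in which Psmb5, Psmb6 and Psmb7 carry the active sites. The 19S cap has a base, whose ATPases unfold substrates, and a lid, which removes their ubiquitin. Every cell needs the proteasome, and under proteasome stress the transcription factor NRF1, encoded by Nfe2l1, is known to raise many of its subunit genes together.

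Values are FPKM (fragments per kilobase of transcript), divided by 1 factor per library to level depth. Deposited values summed to between 8377230 and 10856000 per library, and the depth in reads goes unstated. HBC values are given as the mean ± SD of 3 libraries, and the RBC value is 1 library with no replicate. Each test took its spread from the HBC libraries alone, with the single RBC library taken to vary as much as they do. No source says that the libraries came from separate cultures or mice, so p-values cover variation among these libraries only, part of which may be technical. The basal markers Krt5, Krt14, Trp63, Cdh1, Epcam and Itga6 were all present in both groups (summed level 34048 to 35208 across HBC libraries, 48904 in RBCs). Their directions differed. Krt5 (18625 ± 369 in HBCs against 26488 in RBCs), Krt14 (2594 ± 135 against 11645) and Trp63 (546 ± 12.8 against 4307) were higher in RBCs. Cdh1 (4468 ± 104 against 2423), Epcam (7025 ± 127 against 3197) and Itga6 (1284 ± 21.4 against 844) were higher in HBCs. The RBC library also held more RNA of other cells. Summed levels of 6 fibroblast markers were 44.0 to 66.5 across HBC libraries and 7707 in RBCs, and those of 6 olfactory neuron markers were 132.5 to 164.6 and 5143. Summed levels of 12 leukocyte markers were 498 to 584 and 1849. Of these, Tyrobp, Fcer1g, Csf1r and H2-Aa were listed at 0 in all HBC libraries. The macrophage marker Cd68 made up most of the HBC sum and went the other way, at 478, 506 and 561 in HBCs and 65.7 in RBCs. The part of such RNA in the results below was not tested. In bulk RNA, fewer cells of a type and less RNA per cell cannot be told apart.

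Most proteasome genes were lower in the RBC library than in every HBC library. Of the 41 genes, 39 passed the filter on low values and were tested. The RBC value lay below all 3 HBC values for 35 of these 39 genes, compared with 35.5% of all 16440 genes tested, and above all 3 for the other 4, compared with 58.6%. In limma's test at an adjusted p under 0.05, 34 of the 39 (87.2%) were higher in HBCs and 1 was higher in the RBC library, against 28.4% and 46.8% of all genes tested. With a minimum of 2-fold added, 12 of 39 (30.8%) were higher in HBCs, against 12.8% of all genes, and 0 were higher in the RBC library, against 34.2%. At an unadjusted p under 0.05, 2 members were higher in the RBC library and 34 in HBCs. The share of all genes at that threshold was not computed. Most differences were thus moderate: the median log2 change (RBC minus HBC) was -0.74, with the middle 50% of members between -1.07 and -0.39, while the median of all genes tested was 0.45. The members' median was negative under every scaling tried, from -1.25 to -0.59. The 2-fold count depended on the scaling, with 27 genes at equal library medians (against 23.0% of all genes) and 5 after quantile normalization (against 22.3% of all genes). The members' share thus lay above that of all genes at equal medians and below it after quantile normalization. There Psma3, Psmc6, Psmd5 and Psmd8 kept the call, and Psma1, Psma2, Psmb3, Psmb7, Psmd2, Psmd6, Psmd11 and Psmd14 lost it. The count without a fold minimum was 14 with values as deposited, against 12.7% of all genes, whose median log2 change was then 0.56. When testing was limited to 11158 genes with 10 or more in each library, 35 of the 39 members were called higher in HBCs, against 40.8% of those genes. As a share of all summed values, which no scaling affects, the members made up 0.916%, 0.913% and 0.924% of HBC libraries 1, 2 and 3 and 0.570% of the RBC library. That share of the RBC library was 0.598% with Bpifa1, its most abundant transcript, left out of the sums.

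**Figure D1:**
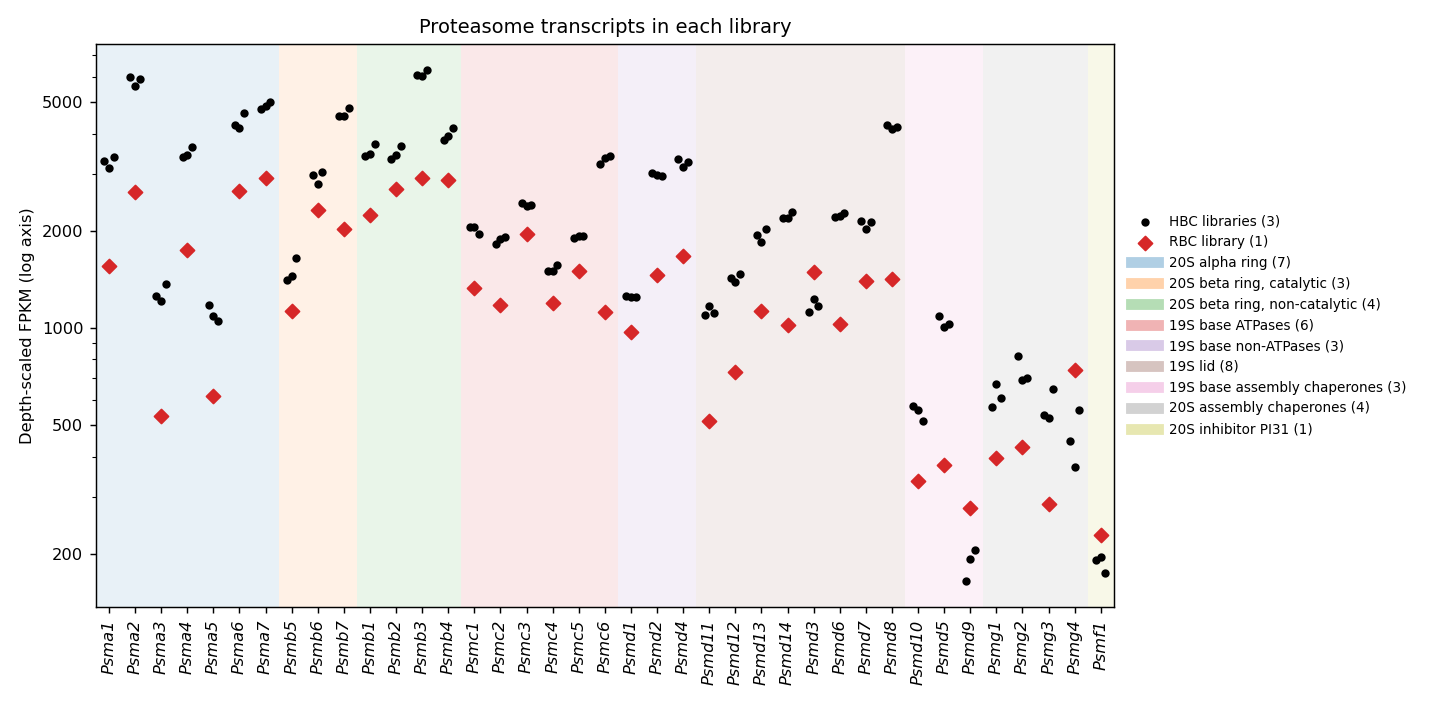
Depth-scaled FPKM (log axis) of the 39 tested proteasome genes in each library, shaded by role. Black points are the 3 HBC libraries and red diamonds the RBC library, which lies below all 3 HBC points for 35 genes and above them for Psmd3, Psmd9, Psmg4 and Psmf1.

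Both remaining members are tissue-specific forms, and neither was expressed at a level that could be tested. Psma8, the alpha subunit of male germ cells, was listed at 0 in all 4 libraries. Psmb11, the beta subunit of thymic cortical epithelium, had 0 in each HBC library and 0.229 in RBCs.

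The alpha ring was lower in the RBC library as a whole, with all 7 tested subunits called higher in HBCs, against 28.4% of all genes tested. Their log2 changes lay between -1.26 and -0.71. With values as deposited, the calls of Psma4, Psma6 and Psma7 were lost, at log2 changes of -0.88, -0.60 and -0.63. Psma1 was at 3283, 3120 and 3391 in HBC libraries 1, 2 and 3 and at 1562 in the RBC library. The HBC mean was thus 2.09-fold higher (limma adjusted p = 0.00271). With values as deposited or equal sums, Psma1 missed the 2-fold minimum, as did Psmb3 and Psmd2 below. Psma2, the most abundant alpha transcript in HBCs, was at 5971, 5631 and 5900 against 2630 (2.22-fold, adjusted p = 0.00152). Psma5 was the least abundant alpha subunit in HBCs (1176, 1088 and 1051 against 616). Psma3 changed most, from 1256, 1215 and 1370 in HBCs to 534 in the RBC library, a log2 change of -1.26 ± 0.0901 SE (adjusted p = 0.00395). In each of these genes the HBC values lay close together and well above the RBC value. Psma6 (4348 ± 245 against 2658) and Psma7 (4875 ± 120 against 2917) differed least in this ring, at 1.64-fold and 1.67-fold. Psma4 sat at the edge of the 2-fold minimum (1.99-fold) and passed it without HBC library 1 or 2.

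The active-site subunits did not change alike. Psmb7, the subunit with trypsin-like activity, was at 4527, 4526 and 4796 in HBCs and 2033 in the RBC library, 2.27-fold higher in HBCs (adjusted p = 0.00159). Psmb6, with caspase-like activity, was at 2983, 2790 and 3033 against 2318 (1.27-fold, adjusted p = 0.0269), and its direction turned under quantile normalization. The test no longer passed for Psmb6 once HBC library 1 (0.0961) or 3 (0.0781) was left out. Psmb5, with chymotrypsin-like activity, was at 1405, 1452 and 1646 against 1130. The HBC mean of Psmb5 was 1.33-fold higher but did not pass the test (adjusted p = 0.0660), and its HBC libraries spread more than those of most members (SD 8.49% of the mean, against a median of 3.64% over the 39 genes). Within each library, the ratio of Psmb7 to Psmb5 was 3.22, 3.12 and 2.91 in HBCs and 1.80 in the RBC library, so the groups did not overlap. Such gaps were common in single genes, with the RBC value below all 3 HBC values for 35.5% and above for 58.6%. For ratios that share was not computed. The ratio of Psmb6 to Psmb5 was 2.12, 1.92 and 1.84 in HBCs, and the RBC value of 2.05 lay among them. With 1 library against 3, a two-sided exact permutation test over libraries cannot go below p = 0.25, the value for the first ratio (0.75 for the second). Processed pseudogenes of Psmb5, Psmb6 and Psmb7 are annotated (4 in GENCODE M21), so the split of reads shared with them is uncertain.

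All 4 tested beta subunits without an active site were called higher in HBCs, against 28.4% of all genes tested. Psmb3 was the most abundant proteasome transcript in both groups, at 6070, 6014 and 6308 in HBCs and 2921 in the RBC library (2.10-fold, adjusted p = 0.00129). Psmb2 differed least (3343, 3440 and 3655 against 2701, 1.29-fold, adjusted p = 0.0247). Psmb1 and Psmb4 lay between them, at 1.58-fold and 1.38-fold. All 4 calls were lost with values as deposited, at log2 changes of -0.96 to -0.25. Under quantile normalization Psmb2 and Psmb4 had log2 changes of -0.0164 and -0.124 and were not called. The Psmb2 call was lost without HBC library 1 (0.0527) or 2 (0.0952), and that of Psmb4 without library 2 (0.0663). Summed over subunits, the ratio of alpha to beta transcripts was 0.942, 0.919 and 0.914 in HBCs and 0.781 in RBCs (exact permutation p = 0.25, the smallest possible). The groups again did not overlap, and how often other such ratios would do so was not computed.

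**Figure D2:**
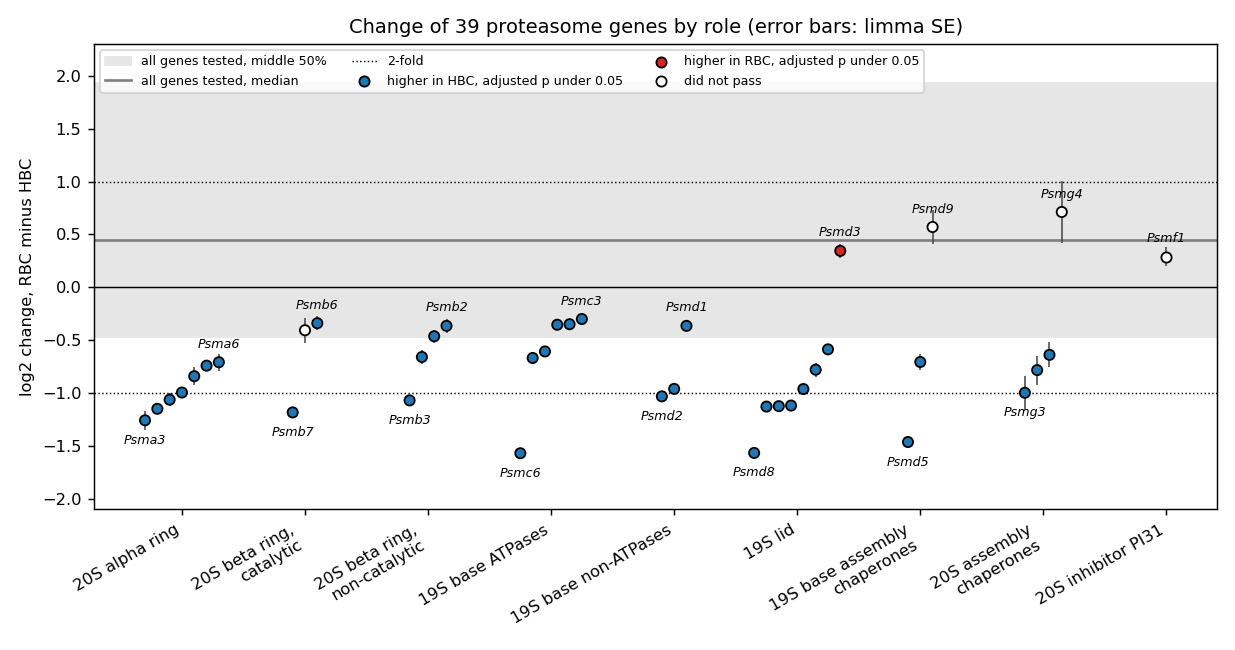
Log2 change (RBC minus HBC, log2 of depth-scaled FPKM + 1) of the 39 tested genes by role, with limma standard errors. Blue and red points passed an adjusted p of 0.05, the grey band and line give the middle 50% and the median (0.45) of all genes tested, and the dotted lines mark 2-fold. Psmc6, Psmd8 and Psmd5 lie lowest and Psmg4 highest.

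The ATPases of the 19S base form a ring of Psmc1 to Psmc6, and Psmc6 stood apart within it. Psmc6 was at 3227, 3350 and 3409 in HBCs and 1122 in the RBC library, 2.97-fold higher in HBCs (log2 change -1.57 ± 0.0420 SE, adjusted p = 0.000718). It was the most abundant ATPase transcript in all 3 HBC libraries and the least abundant in the RBC library. The other 5 ATPases were also called higher in HBCs, against 28.4% of all genes tested, but by 1.23-fold to 1.59-fold. These 5 calls were lost with values as deposited, at log2 changes of -0.56 to -0.19. Under quantile normalization Psmc4 and Psmc5 had log2 changes of -0.0284 and -0.000634 and were not called. Psmc3, the ATPase that changed least, was at 2438, 2384 and 2396 against 1954 (adjusted p = 0.00356), and its direction turned under quantile normalization. Psmc4 was the least abundant in HBCs (1527 ± 35.8 against 1198). The ratio of Psmc6 to Psmc3 was 1.32, 1.41 and 1.42 in HBCs and 0.574 in RBCs, a pair chosen after its values were seen and given without a test. Among the scaffold and ubiquitin-binding proteins of the base, Psmd2 (3022, 2983 and 2949 against 1460, 2.04-fold, adjusted p = 0.000432) passed the 2-fold minimum. The ubiquitin receptor Psmd4 (3256 ± 89.6 against 1673) and the large scaffold Psmd1 (1251 ± 7.07 against 972) passed without it, at 1.95-fold and 1.29-fold. The Psmd1 call was lost with values as deposited, at a log2 change of -0.25.

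Lid subunits held both one of the strongest decreases and the only called increase in the RBC library. Psmd8 was at 4256, 4132 and 4189 in HBCs and 1416 in the RBC library, 2.96-fold higher in HBCs (log2 change -1.57 ± 0.0248 SE, adjusted p = 0.000252). Psmd14, the deubiquitinase of the lid, was at 2198, 2194 and 2286 against 1021 (2.18-fold, adjusted p = 0.000930). Psmd6 (2203, 2223 and 2278 against 1029) and Psmd11 (1096, 1173 and 1113 against 515) were 2.17-fold and 2.19-fold higher in HBCs. Psmd7 (2098 ± 63.3 against 1396), Psmd12 (1430 ± 45.0 against 733) and Psmd13 (1937 ± 89.2 against 1128) were called higher in HBCs without reaching 2-fold. These calls were lost with values as deposited, at log2 changes of -0.47, -0.85 and -0.67. Psmd3 went the other way, at 1125, 1231 and 1169 in HBCs and 1491 in the RBC library. It was 1.27-fold higher there (log2 change 0.34 ± 0.0658 SE, adjusted p = 0.0268), and this call did not hold without HBC library 1 (0.0668) or 3 (0.108) or with values as deposited (0.216). Its log2 change turned to -0.16 with library medians set equal, and the adjusted p ran from 0.00140 to 0.216 over the alternatives. By level, Psmd8 was the highest lid transcript in HBCs, ranking 6 among all members, and ranked 17 in the RBC library, while Psmd3 ranked 29 in HBCs and 15 in the RBC library, where it was the highest of the lid. The ratio of Psmd8 to Psmd3, at 3.78, 3.36 and 3.58 in HBCs, was 0.949 in RBCs; this pair too was chosen for its difference.

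In HBCs the chaperones that build the particle were less abundant than the tested subunits by mean level, and 2 of them had their highest value in the RBC library. Psmd5, which holds ATPases of the base before assembly, was at 1091, 1006 and 1031 in HBCs and 378 in the RBC library, 2.76-fold higher in HBCs (adjusted p = 0.00153). Psmd10, the base chaperone also called gankyrin, was called higher in HBCs at 1.63-fold (549 ± 29.1 against 336), a call lost without HBC library 2 (0.0524). Psmd9, the base chaperone also called p27, was at 165, 194 and 205 in HBCs and at 278 in the RBC library, which did not pass the test (adjusted p = 0.0621). Of the chaperones of the 20S core, Psmg1 (617 ± 51.3 against 395), Psmg2 (739 ± 71.5 against 428) and Psmg3 (572 ± 66.2 against 285) were called higher in HBCs. Each of these 3 calls was lost without 1 or another HBC library: Psmg1 without 1 (0.0526) or 3 (0.0978), Psmg2 without 2 (0.0688) or 3 (0.0757) and Psmg3 without 1 (0.0710) or 2 (0.0636). Psmg4 was at 446, 371 and 559 in HBCs and 742 in the RBC library. Its HBC libraries spread most of all members (SD 20.6% of the mean), and it did not pass the test (adjusted p = 0.126). Psmf1, which encodes the inhibitor PI31, had the lowest HBC mean of the tested genes (191, 195 and 174 against 228, adjusted p = 0.0720), and its direction turned with library medians set equal. The 4 genes above their HBC range in the RBC library thus all differed by less than 2-fold, and only Psmd3 among them passed the test.

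Levels of the members lined up in both groups, with less spread between subunits of the same complex in the RBC library for most complexes. Across the 39 genes, log2 levels of the HBC mean and the RBC library correlated with r = 0.906 (Spearman 0.895), against r = 0.995 to 0.997 between HBC libraries. These coefficients describe genes that share libraries and are not independent replicates. The coefficient of variation over beta subunits (without Psmb11) was 39.2%, 38.8% and 37.1% in HBCs and 26.9% in RBCs. Over the 9 base subunits it was 32.6% to 33.3% and 22.2%, and over the 8 lid subunits 46.8% to 49.1% and 31.5%. The alpha ring (without Psma8) did not follow this, with 51.0% to 51.4% in HBCs and 54.0% in the RBC library. The ratio of summed base and lid transcripts to summed 20S transcripts was 0.745, 0.748 and 0.713 in HBCs, and the RBC value of 0.731 lay within that range (exact permutation p = 1). The ratio of lid to base was 0.797, 0.790 and 0.807 in HBCs and 0.705 in the RBC library. The log2 change was little related to transcript length in GENCODE M21 (Spearman -0.16, n = 39). Its Spearman coefficient with the HBC level was -0.35, though the HBC values enter both measures.

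The genes lie on 16 chromosomes (GRCm38), and their promoters were read for motifs known from proteasome genes. RefSeq windows (build GRCm38.p6) of 300 bases, from 250 before to 50 after the start, were at hand for 33 of the 41 members, with 35 windows in all. No window was given for Psma8, Psmb1, Psmb2, Psmb7, Psmc3, Psmd3, Psmd7 and Psmg2. Both strands were searched for TGACNNNGC, the core of the antioxidant response element that NRF1 binds, for CCAAT, the box bound by NF-Y, and for CCGGAAG, a core bound by ETS factors. These motifs do not contain one another. TGACNNNGC occurred in 5 of the 35 windows (14.3%), against 12.4% of all 32851 windows, and CCAAT in 12 (34.3%), against 37.4%. CCGGAAG occurred in 13 windows (37.1%), against 8.86% of all windows. Member windows had a median GC content of 56.7%, against 52.7% for all windows. A match is a description of letters and does not show that a factor binds.

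The upstream 250 bases of 5 members are printed below in lower case, 5′ to 3′ on the gene's strand, with matches to the 3 motifs in capitals. Psma1 and Psmb5 represent the alpha ring and the active sites, Psmc6 is the member with the largest fold, and Psmd9 and Psmg4 have the highest positive log2 changes, though neither passed the test. Psma1 has CCAAT on each strand, the matches starting 126 and 98 bases before the start. Psmb5 has TGACNNNGC at 47 bases before the start, Psmd9 has it at 31, and Psmc6 has it on the opposite strand at 227 with CCGGAAG at 100. Psmg4 has no match to the 3 motifs in these bases.
Psma1, chr7:114276117-114276366, minus strand: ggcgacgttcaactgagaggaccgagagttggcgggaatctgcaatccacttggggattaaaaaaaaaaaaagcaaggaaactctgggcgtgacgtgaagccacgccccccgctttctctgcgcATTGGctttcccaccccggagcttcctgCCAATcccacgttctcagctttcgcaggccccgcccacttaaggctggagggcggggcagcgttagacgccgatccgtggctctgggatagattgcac
Psmb5, chr14:54617996-54618245, minus strand: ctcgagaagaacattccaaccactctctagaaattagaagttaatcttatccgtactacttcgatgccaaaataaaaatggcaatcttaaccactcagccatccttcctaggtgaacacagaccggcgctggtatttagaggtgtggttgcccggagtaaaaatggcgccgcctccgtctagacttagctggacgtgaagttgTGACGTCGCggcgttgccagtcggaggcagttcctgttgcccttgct
Psmc6, chr14:45329574-45329823, plus strand: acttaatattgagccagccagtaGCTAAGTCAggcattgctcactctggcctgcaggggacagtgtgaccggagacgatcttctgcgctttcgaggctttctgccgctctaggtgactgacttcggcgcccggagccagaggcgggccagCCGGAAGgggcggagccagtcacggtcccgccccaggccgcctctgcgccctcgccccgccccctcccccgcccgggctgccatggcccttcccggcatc
Psmd9, chr5:123227940-123228189, plus strand: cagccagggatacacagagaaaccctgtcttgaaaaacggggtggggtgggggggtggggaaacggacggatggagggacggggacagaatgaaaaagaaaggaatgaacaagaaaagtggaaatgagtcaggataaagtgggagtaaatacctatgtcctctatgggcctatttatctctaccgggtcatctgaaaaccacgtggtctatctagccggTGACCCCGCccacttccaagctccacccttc
Psmg4, chr13:34162714-34162963, plus strand: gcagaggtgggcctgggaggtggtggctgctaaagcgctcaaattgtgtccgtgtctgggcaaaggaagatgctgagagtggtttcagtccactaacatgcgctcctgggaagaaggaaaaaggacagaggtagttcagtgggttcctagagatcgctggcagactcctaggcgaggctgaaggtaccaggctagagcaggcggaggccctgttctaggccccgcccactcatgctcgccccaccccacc

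Members with and without a motif overlapped in their changes. The 12 tested genes with CCGGAAG had a median log2 change of -0.96 and the 20 without it -0.72. The 5 genes with TGACNNNGC (Psmb5, Psmb6, Psmc6, Psmd12 and Psmd9) had a median of -0.41 and the 27 without it -0.84. Psmc6 and Psmd9, which both hold the response element core, lie near opposite ends of the members' range.

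Immunoproteasome subunits, which replace the active-site subunits in cells exposed to interferon, differed in direction among themselves. Psmb8, the counterpart of Psmb5, was at 301, 355 and 415 in HBCs and 383 in the RBC library (adjusted p = 0.687). Its RBC value lay within the HBC range. Psmb9, the counterpart of Psmb6, was 1.79-fold higher in HBCs (347, 310 and 330 against 183, adjusted p = 0.00713). Psmb10, the counterpart of Psmb7, was 1.74-fold higher in RBCs (130, 157 and 139 against 248, adjusted p = 0.0211). The Psmb10 call was lost without HBC library 1 (0.0593) or 3 (0.0909), with values as deposited (0.0993) and with equal medians (0.169). As a percentage of the constitutive partner in the same library, Psmb8 was at 21.4%, 24.5% and 25.2% in HBCs and 33.9% in the RBC library. Psmb9 was at 11.6%, 11.1% and 10.9% against 7.91%, and Psmb10 at 2.88%, 3.46% and 2.91% against 12.2%. All 3 ratios lay outside the HBC range. Single genes often did so, with the RBC value below all 3 HBC values for 35.5% of genes tested and above for 58.6%. That share was not computed for ratios. The exact permutation p was 0.25 for each ratio and also after adjustment over the 3 ratios, the smallest value possible. In the same libraries 9 of 11 tested leukocyte markers were called higher in RBCs with the 2-fold minimum, against 34.2% of all genes, and Cd68 was called 7.84-fold higher in HBCs. The part of leukocyte RNA in these ratios was not tested.

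**Figure D3:**
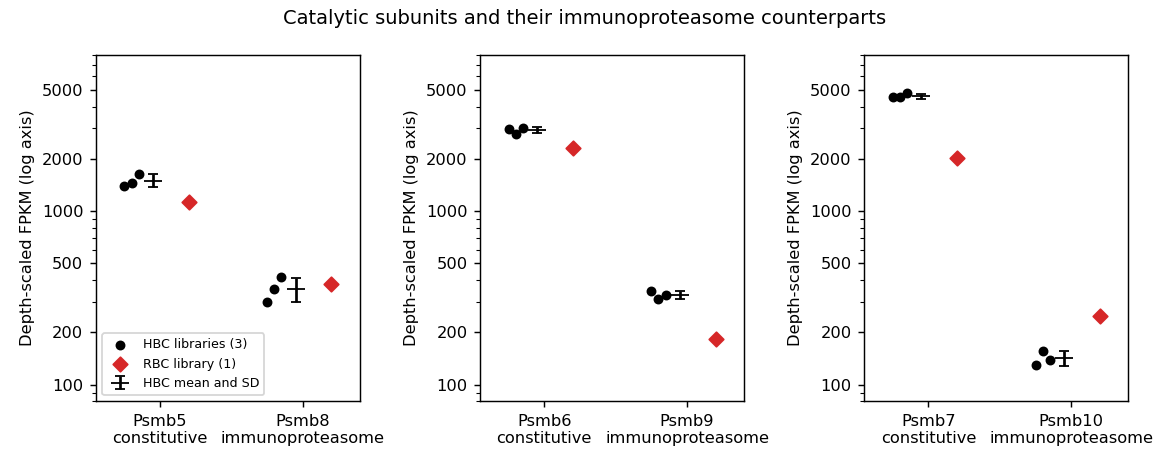
Depth-scaled FPKM (log axis) of each active-site subunit and its immunoproteasome counterpart. Black points are the 3 HBC libraries with their mean and SD, and red diamonds are the RBC library. Psmb7 is 2.27-fold higher in HBCs, whereas its counterpart Psmb10 is 1.74-fold higher in the RBC library.

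Other genes of the pathway were called in both directions. Of 52 tested genes on 7 lists, 9 were called higher in HBCs and 4 higher in RBCs with the 2-fold minimum (against 12.8% and 34.2% of all genes), with a median log2 change of -0.26. These counts became 18 and 2 with library medians set equal (against 23.0% and 27.3% of all genes). They were 7 and 6 with values as deposited (against 10.4% and 34.0%) and with equal sums (against 11.3% and 35.9%). Of the activators, Psme3, which forms the nuclear activator PA28 gamma, was 2.15-fold higher in HBCs (1476 ± 28.0 against 688, adjusted p = 0.000699), and missed 2-fold with values as deposited, equal sums and quantile normalization. Psme4, which encodes PA200, was 1.78-fold higher in HBCs (644 ± 30.2 against 363, adjusted p = 0.00506). The interferon-inducible pair that forms PA28 alpha-beta differed from these: Psme1 was 1.68-fold higher in RBCs (1428 against 815, 827 and 907, adjusted p = 0.00911), and Psme2 was at 446 ± 5.59 in HBCs and 437 in the RBC library (adjusted p = 0.331). The Psme1 call was lost without HBC library 2 (0.0515), with values as deposited (0.0784) and with equal medians (0.108). Among 9 other proteasome subunits, assembly and associated factors, 7 were called higher in HBCs without a fold minimum and 0 in the RBC library. The shares of all genes by that rule were 28.4% and 46.8%. The proteasome-bound deubiquitinases Usp14 (766 ± 23.8 against 284) and Uchl5 (432 ± 14.5 against 212) were 2.70-fold and 2.04-fold higher, and Uchl5 missed 2-fold with values as deposited, equal sums and a pseudocount of 10.

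Among 10 regulators, Nfe2l1 followed the members and its protease did not. Without a fold minimum, 3 of the 10 (Nfe2l1, Nfe2l2 and Nfya) were called higher in HBCs and 5 higher in RBCs. The shares of all genes by that rule were 28.4% and 46.8%. Nfe2l1, which encodes NRF1, was at 2775, 2739 and 2678 in HBCs and 1225 in the RBC library, 2.23-fold higher in HBCs (adjusted p = 0.000595), but missed 2-fold after quantile normalization. Ddi2, the protease that activates NRF1, was 2.54-fold higher in RBCs (663 against 250, 264 and 269), as were the related factor Nfe2l3 (2.67-fold) and Stat3 (3.71-fold, 1077 against 290 ± 4.88). Ddi2 and Nfe2l3 missed 2-fold with library medians set equal. Among ubiquitin and E1 genes, the E1 enzyme Uba6 was 3.50-fold higher in HBCs (316 ± 19.4 against 90.3) and the ubiquitin fusion gene Rps27a 2.73-fold higher (784 ± 98.1 against 287), a call that did not hold without HBC library 1. Rps27a has near-identical copies in the genome, so the assignment of reads to it is uncertain. Of 11 ubiquitin receptors and p97 partners, the shuttle receptor Rad23b passed the 2-fold minimum (2918 ± 41.9 against 1066, 2.74-fold higher in HBCs). Of 8 genes of MHC class I peptide loading, B2m was 8.61-fold higher in HBCs (31328 ± 2134 against 3640) and the peptide transporter Tap1 2.52-fold higher (459 ± 18.7 against 183). Without a fold minimum, Tap2, the partner of Tap1, was 1.92-fold higher in RBCs (475 against 248 ± 6.74, adjusted p = 0.00169). The peptide-trimming enzyme Erap1 was 1.57-fold higher there. Of the 8 genes, 5 were called higher in HBCs and 2 in RBCs by that rule, against 28.4% and 46.8% of all genes.

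**Figure D4:**
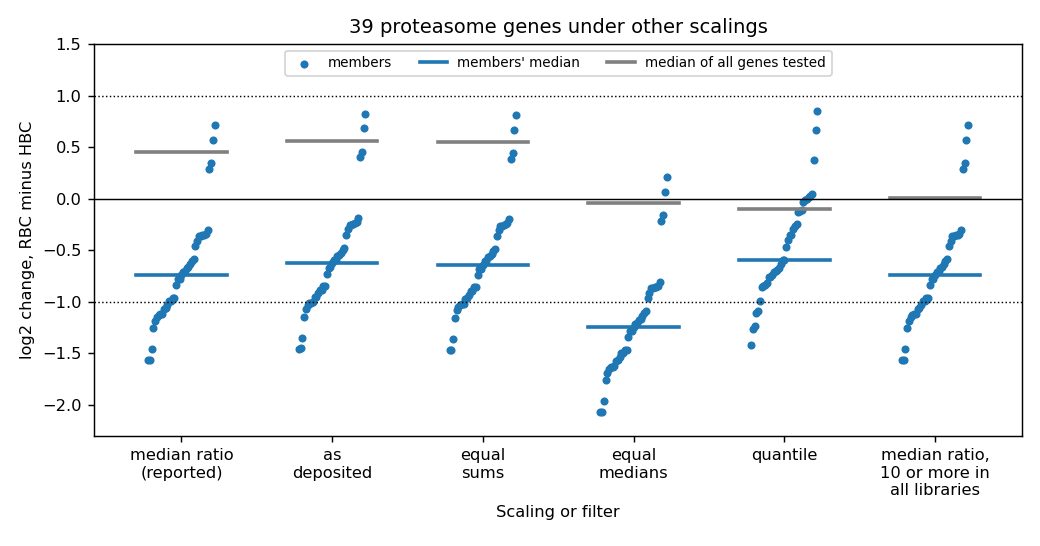
Log2 change (RBC minus HBC) of the 39 tested proteasome genes under 5 scalings and a stricter filter. Points are genes, blue lines the members' median and grey lines the median of all genes tested. The members' median is negative in each column, from -1.25 with equal medians to -0.59 under quantile normalization, where it lies nearest to that of all genes.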

How the data were processed

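RNA sequencing of 3 cultured HBC libraries and 1 sorted RBC library gave 1 table. The authors deposited FPKM values, 1 per gene symbol and library. Per the submitters' processing notes, STAR, Cuffnorm, Cufflinks 2.2.1 and mm9 were used, with no role or order named; annotation, strandedness and filters go unstated. Although named FPKM, the deposited values appeared to keep each library's depth: in genes with all values below 4, the ratio between 2 libraries lay within 2% of 1 for 12.4% to 26.0% of genes over the 6 pairs, and column sums differ. Each library was divided by its median ratio to the genes' geometric means, taken over 11134 genes at 10 or more in all 4 libraries (factors 0.843, 1.05, 1.07 and 1.06 for HBC libraries 1 to 3 and the RBC library). Genes whose HBC mean and RBC value averaged at least 1 were tested. The log2 of value + 1 entered limma 3.58.1 (R 4.3.3, mean-variance trend, two-sided, 2 residual degrees of freedom), with Benjamini-Hochberg adjustment over all genes tested. Log2 changes are on the log2(value + 1) scale, which understates changes of low genes, whereas each fold is a ratio of scaled values. Read depth is unknown, which leaves no basis for counting intervals. Of the listed pathway genes, Paaf1 and Ecm29 did not match a symbol, nor did the ciliated marker Dnah5. The members and gene lists were chosen with earlier results of these data known. Named genes are the markers Psma1 and Psmb5, the active-site subunits, members called with the 2-fold minimum, the extremes of change and of HBC level in each role, the immunoproteasome and activator genes, and up to 4 called genes per pathway list. Other members are named with their values for completeness, since the symbol rule fixes them. One result of the pathway lists is not reported here. Alternatives were other scalings, pseudocounts (0.1 and 10), filters, a fit without the trend, and leaving out each HBC library.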

Additional observations from a re-analysis of the deposited data

How the results depend on the processing

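Over the 13 alternatives, 33 of the 39 tested members kept a negative log2 change and 2 (Psmd9 and Psmg4) a positive one. Of the 12 members called higher in HBCs with the 2-fold minimum, Psma3, Psmc6, Psmd5 and Psmd8 were called under each alternative. That count was 27 with equal medians and 5 under quantile normalization (23.0% and 22.3% of all genes), and 12 to 13 without any 1 HBC library (12.2% to 12.4%). Without a fold minimum, the count of members higher in HBCs was 14 with values as deposited (12.7% of all genes) and 29 to 32 without any 1 HBC library (23.8% to 24.7%). The count higher in the RBC library was 0 with values as deposited and with equal medians, 2 with equal sums, quantile normalization, a minimum of 5 and no filter, 4 among genes with 10 or more in each library, and 0 to 1 without any 1 HBC library (0 without library 3). Shares of all genes higher in the RBC library were 36.6% with values as deposited, 34.5% with equal medians, 49.5% with equal sums and 32.9% under quantile normalization. They were 45.9% with a minimum of 5 and with no filter, 40.6% among genes with 10 or more in each library and 39.4% without HBC library 1. The members' median log2 change was -0.63 with values as deposited, -0.64 with equal sums, -1.25 with equal medians, -0.59 under quantile normalization and -0.75 to -0.74 without any 1 HBC library. Pathway list genes higher in HBCs and in the RBC library numbered 18 and 2 with equal medians (23.0% and 27.3% of all genes). The median of all genes tested turned to -0.0443 with equal medians and -0.10 under quantile normalization. Signs turned for Psmd3 (-0.16), Psmf1 (-0.21) and Psmb8 (-0.39) with equal medians, for Psmb6 (0.0204), Psmc3 (0.0416) and Psme2 (0.0289) under quantile normalization, for Psme2 with values as deposited (0.0856) and equal sums (0.0736), and for Psmb8 without HBC library 1 (-0.0180, and 0.224 without library 3). The cause was not tested. With TGANNNNGC in place of TGACNNNGC, 19 of 33 members had a match, against 41.3% of all windows. No paired analysis was possible because nothing on record pairs the RBC library with an HBC library. With 1 RBC library, its own variation is unknown and cannot be told apart from a difference between the groups.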
